A study of Mus musculus with 2 samples.

Results

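The tripartite motif (TRIM) family of ubiquitin ligases was followed in primary mouse hepatocytes with and without *Drp1*, the gene of the mitochondrial fission factor DRP1, which the array lists as *Dnm1l*. Members were all probes for transcripts whose gene name is Trim followed by a number and at most 1 letter. The rule found 121 of 56605 probes and 66 gene names, and it used no measured value. The control culture came from *Drp1*flox/flox littermates, which GEO's labels call wild type control, and the *Drp1*LiKO culture from *Alb-Cre*Tg/+ *Drp1*flox/flox mice, in which the albumin promoter drives Cre recombinase in hepatocytes. Both were on a C57BL/6 background, shared the floxed alleles, received no treatment named in the labels and were harvested 24 h after seeding. The methods give an age and a sex, male, for purchased mice, but whether these hold for the mice behind the arrays, and how many mice each culture came from, is not given in the sources used here. RNA labeled with Cy3 was hybridized to 1 array per genotype, so there was no replicate and no test, and each difference describes these 2 arrays.

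Most TRIM proteins carry a RING finger that recruits a ubiquitin-conjugating enzyme, 1 or more B-boxes and a coiled coil through which they form dimers, and a few, such as *Trim44*, lack the RING. The region after the coiled coil differs between members and picks the target. It is a PRY-SPRY domain in the largest class, and PHD fingers with a bromodomain, NHL repeats or other folds in smaller ones. Many PRY-SPRY members are induced by interferon and take part in antiviral defense, whereas others act in chromatin silencing, in muscle or in the nervous system. In liver the best known are *Trim24*, a corepressor that restrains tumor growth in mice, and *Trim28*, the corepressor of KRAB zinc finger proteins.

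Expression is given as the processed signal of a probe, a fluorescence intensity in arbitrary units after background subtraction by the scanner software. In each pair of signals the control comes first. Signals were compared after each array was scaled to its 75th percentile (313 for the control array, 356 for the *Drp1*LiKO array), and ratios are log2 values of *Drp1*LiKO over control. A probe was compared if it was well above background on at least 1 array. A dim signal below the detection limit of its array, the lowest signal there well above background (18.2 and 15.0), was set to that limit, and one above it kept its value, so such ratios are bounds. A gene is represented by its brightest probe and called higher or lower at a Z score of 2 or -2, the distance of its ratio from the mean of all 30275 probes compared in units of their SD, 0.65. These limits lie at log2 ratios of 1.30 and -1.31. Levels of different probes are not comparable, since each 60-mer binds with its own strength.

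The brightest probe of the targeted gene *Dnm1l* read 2602 in the control and 1217 in the *Drp1*LiKO culture, a log2 ratio of -1.28 with a Z score of -1.95, and a second probe, near background, read 22.8 and 20.9, a ratio of -0.31. All 12 hepatocyte markers were detected on at least 1 array, with a summed scaled signal of 665015 and 645712, and *Alb* had a signal of 219613 and 266703. Of 16 macrophage markers 15 were compared, all had ratios above 0, 13 were called higher, and their summed scaled signal was 11606 in the control and 28064 in the *Drp1*LiKO culture. *Clec4f* and *Vsig4*, which define Kupffer cells, were not well above background in control cells, and *Timd4* was dim on both arrays. Of the 15 macrophage markers compared, 12 were well above background in control cells, such as *Adgre1* at 46.4 and *Cd5l* at 177. Of 10 endothelial markers 5 were called higher, and of 8 stellate markers compared 3 were. Over all genes compared, 3.50% were called higher and 2.81% lower. Of T and NK cell markers 2 of 7 were compared and 0 were called, too few for a result. In whole cultures, fewer cells of a type and less RNA per cell cannot be told apart.

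Of the 66 TRIM genes, 46 (69.7%) were compared, against 54.4% of all gene names on the array. By their brightest probes *Trim30a*, *Trim30d*, *Trim15* and *Trim72* were called higher in *Drp1*LiKO cells and none was called lower. The 4 higher genes are 8.70% of the 46, where 3.50% of all 20165 genes compared were called higher and 2.81% lower. The median log2 ratio was 0.06 over the 46 genes and -0.05 over all genes. Most of the family differed little between the arrays, as 35 of the 46 genes (76.1%) had a ratio within 0.5 of 0, as did 75.1% of all genes. The share of TRIM genes with a ratio above 0 was 27 of 46, or 58.7%, against 44.5% of all genes. The plot of ratios by gene shows the 6 largest ratios standing apart from the rest. Among them, those of *Trim15*, *Trim72* and *Trim69* are bounds. In the normalized values that the authors deposited, *Trim72* had 0.0, *Trim69* 0.71 and *Trim12c* 0.91, where *Trim34a* had 0.62, so the gap was not seen there. The *Drp1*LiKO column of those values does not keep the probe order of its array, so here and below they are only an alternative.

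**Figure D1:**
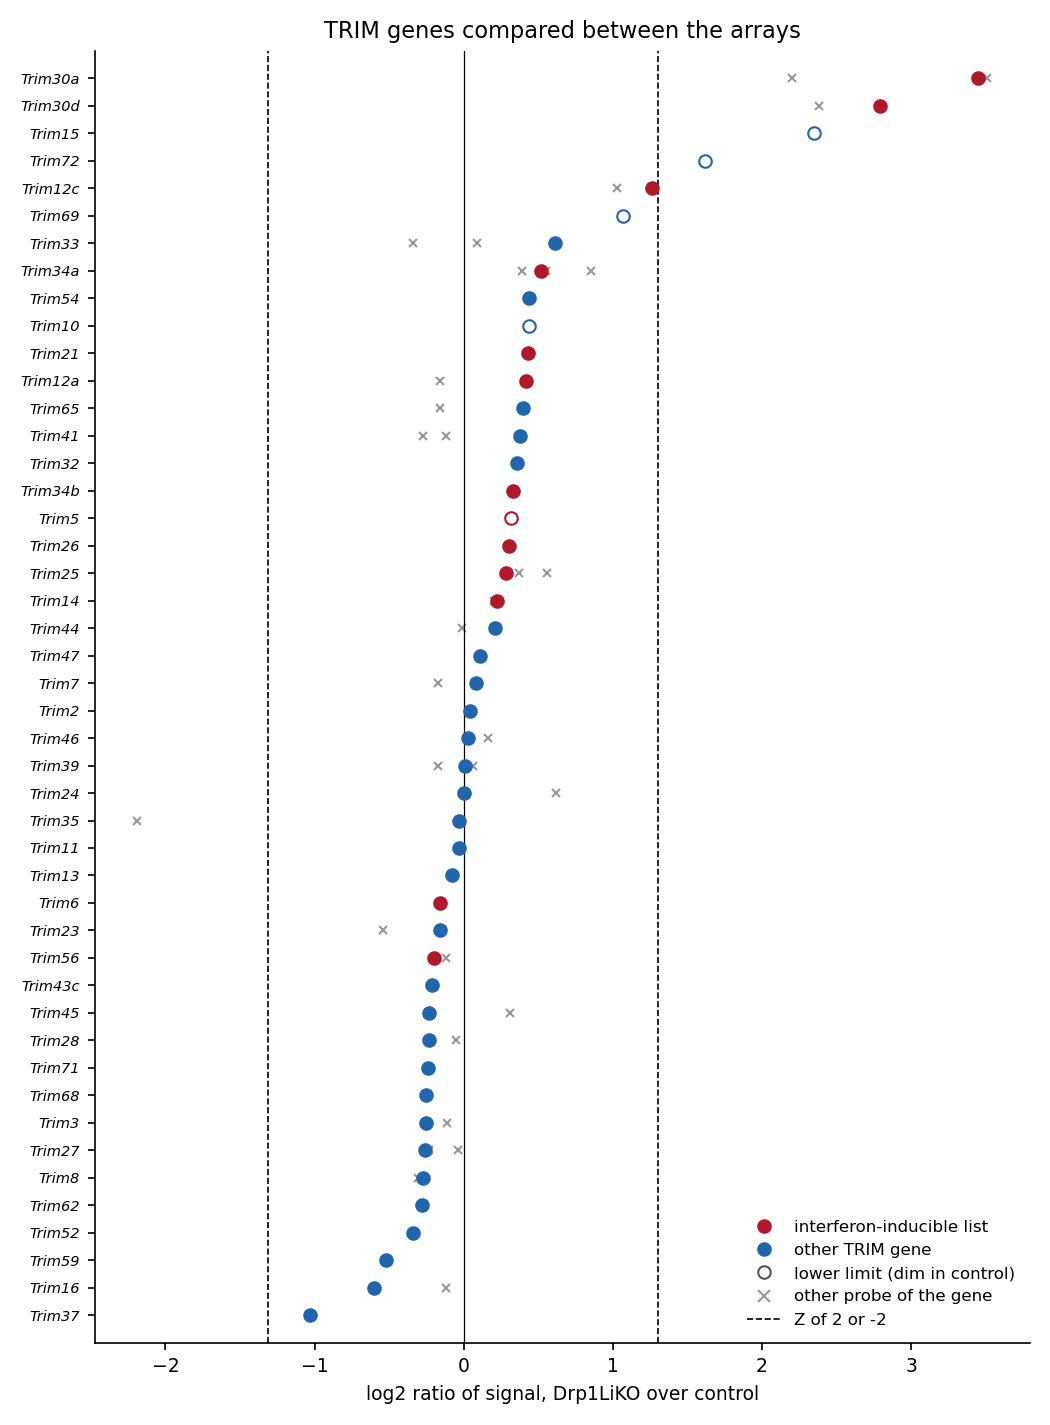
Log2 ratio of signal (*Drp1*LiKO over control) of the 46 TRIM genes compared, 1 row per gene, with the brightest probe as a circle, other probes as crosses, open circles for lower limits and dashed lines at Z scores of 2 and -2. *Trim30a*, *Trim30d*, *Trim15* and *Trim72* lie beyond the upper line, *Trim12c* lies at 1.26 just inside it, and a second probe of *Trim35* lies below the lower line at -2.19.

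By single probes, 79 of the 121 were compared. Of these 7 were called higher and 1 lower, where the shares over all probes were 2.94% and 2.49%. The 7 were all 3 probes of *Trim30a*, both of *Trim30d* and the probes of *Trim15* and *Trim72*, and the 1 lower probe belonged to *Trim35*. Each of the 71 probes detected in control cells was detected in *Drp1*LiKO cells too, and 8 more were detected in the latter alone. Of genes, 5 were detected in *Drp1*LiKO cells alone (10.9%), close to the 9.09% of all genes. None of the TRIM spots was saturated or marked as an outlier. Every TRIM probe is printed once, and the noise expected between single spots was estimated from 300 probes printed 10 times. For a log2 ratio its SD was 0.33 at signals below 64 and 0.054 at signals of at least 512 on both arrays. Most of the 300 probes are bright, and below 64 the estimate rests on 5 probes of the control array and 8 of the *Drp1*LiKO array. This noise holds no difference between cultures.

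**Figure D2:**
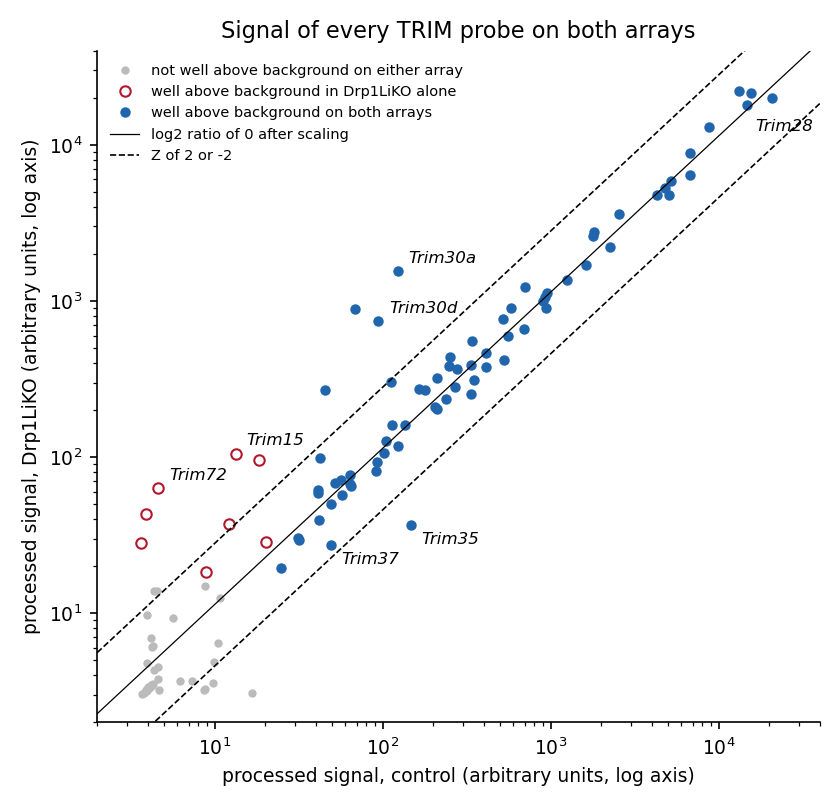
Processed signal of all 121 TRIM probes in control (x axis) and *Drp1*LiKO cells (y axis), both in arbitrary units on log axes, by whether the probe was well above background. The line marks equal scaled signal and the dashed lines Z scores of 2 and -2. Most probes follow the line, *Trim30a* and *Trim30d* lie above it at well measured signals, and *Trim15* and *Trim72* were dim in control cells.

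The regions before the transcription start of 4 interferon-inducible members are shown, because 3 of them belong to a gene cluster with the largest ratios and all 4 hold a pair of GAAA half-sites with 2 bases between them (GAAANNGAAA), the core of the element that interferon regulatory factors and the ISGF3 complex bind. Capitals mark the pair, which here reads on the opposite strand. The sequences are those of RefSeq on GRCm38.p6, written 5′ to 3′ on the strand of the gene.
*Trim30a*, chr7:104465194-104465343, minus strand: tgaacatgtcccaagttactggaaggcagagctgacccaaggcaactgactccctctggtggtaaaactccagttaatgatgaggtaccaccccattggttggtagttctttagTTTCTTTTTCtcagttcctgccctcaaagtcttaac
*Trim30d*, chr7:104507850-104507999, minus strand: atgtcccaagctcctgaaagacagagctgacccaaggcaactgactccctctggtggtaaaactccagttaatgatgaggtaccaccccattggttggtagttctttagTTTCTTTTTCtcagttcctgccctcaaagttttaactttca
*Trim12c*, chr7:104353350-104353499, minus strand: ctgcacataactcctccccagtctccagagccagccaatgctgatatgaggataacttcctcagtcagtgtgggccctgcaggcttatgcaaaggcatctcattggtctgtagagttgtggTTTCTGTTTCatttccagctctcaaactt
*Trim26*, chr17:36836946-36837045, plus strand: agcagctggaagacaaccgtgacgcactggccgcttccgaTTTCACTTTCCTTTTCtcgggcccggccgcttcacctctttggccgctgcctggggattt
The first 3 stretches are the 150 bases before the start and the last runs from 200 to 101 bases before it. The pair begins 36 bases before the start in *Trim30a*, 41 in *Trim30d*, 29 in *Trim12c* and 160 in *Trim26*, where a second pair overlaps it. The upstream regions of *Trim30a* and *Trim30d* shared 226 of 245 aligned bases (92.2%).

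A promoter of 250 bases before to 50 after a start was available for 51 of the 66 TRIM genes. The pair, searched on both strands, stood in 9 of these 51 (17.6%) and in 3.99% of 27025 genes. The 9 genes were *Trim2*, *Trim5*, *Trim12a*, *Trim12c*, *Trim21*, *Trim26*, *Trim30a*, *Trim30d* and *Trim34a*, and 8 of them, all but *Trim2*, stand in the list of interferon-inducible members. Followed by CT (GAAANNGAAACT), it stood in 3 of 51, *Trim30a*, *Trim30d* and *Trim34a*, and in 0.303% of all genes. All 9 genes had ratios above 0, as did 44.5% of all genes, and they ranged from 0.04 for *Trim2* to 3.45 for *Trim30a*. Their median was 0.43 and 2, *Trim30a* and *Trim30d*, were called higher. The 9 genes are not independent of each other. In aligned bases before the start *Trim30a* and *Trim30d* were 92.2% identical, and *Trim12c* was 95.2% identical to *Trim5* and to *Trim12a*. The ratios of *Trim2* and *Trim5* lay within the noise between single spots. The 28 TRIM genes compared whose promoter lacks the pair had a median of 0.01, a range of -1.03 to 2.35 and 2 called higher. Over all genes compared with a promoter in the table, 9.45% of 434 with the pair and 3.50% of 11147 without it were called higher. Their median ratios differed little, at 0.0 with the pair and -0.04 without it. A STAT site (TTCNNNGAA, which reads the same on both strands) stood in 5 of 51 TRIM genes (9.80%) and in 9.55% of all genes. The 5 were *Trim15*, *Trim31*, *Trim38*, *Trim45* and *Trim46*, of which only *Trim15* was called. These matches are of letters and show no binding.

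*Trim30a*, which limits Toll-like receptor signaling by degrading the adaptors TAB2 and TAB3, had the largest ratio of the family. Its brightest probe (NM_009099), whose ends the files place at 111560170 and 111560747 on chromosome 7 of mm9, rose from a signal of 124 to 1548, an 11.0-fold difference with a log2 ratio of 3.45 and a Z score of 5.31. Its second probe rose from 68.1 to 882, a ratio of 3.51. The last was dim in control cells at 18.3 and reached 95.8 in *Drp1*LiKO cells, at least 4.60-fold higher. All 3 probes thus lay on the same side of the threshold, and the ratio of the brightest ranked 37th among all 20165 genes.

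*Trim30d*, a close relative, rose from 94.4 to 739.8 at its brightest probe (NM_199146, chromosome 7, 111620805 to 111620864), a 6.91-fold difference with a log2 ratio of 2.79. Its second probe (111636419 to 111636478) rose from 45.6 to 269, a ratio of 2.38. *Trim30a* and *Trim30d* are similar in sequence, so the probes themselves are shown, in lower case as the files give them.
*Trim30a*, brightest probe: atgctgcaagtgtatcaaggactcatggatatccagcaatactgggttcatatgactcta
*Trim30d*, brightest probe: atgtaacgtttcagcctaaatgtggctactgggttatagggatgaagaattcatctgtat
*Trim30d*, second probe: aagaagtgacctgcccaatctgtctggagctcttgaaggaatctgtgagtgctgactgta
None of the TRIM probes shared a run of 16 or more bases with a probe of another TRIM gene. The brightest *Trim30d* probe shared 29 bases with a probe for a long noncoding RNA of the same cluster, which had a signal of 4.10 and 32.0. Whether each probe binds the transcript of 1 gene alone is not known.

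*Trim30a* and *Trim30d* lie at the end of a cluster on chromosome 7 that holds the mouse relatives of *TRIM5*, the retrovirus restriction factor of primates. In map order on mm9 the array covers *Trim6*, *Trim34a*, *Trim5*, *Trim12a*, *Trim34b*, *Trim12c*, *Trim30b*, *Trim30a* and *Trim30d*. Of these 9 genes 8 were compared, 7 had ratios above 0 and 2 were called higher, with a median of 0.47. Over all genes 44.5% had ratios above 0 and 3.50% were called higher. Of the 19 probes of the cluster genes 17 were compared and 15 had ratios above 0. The ratios fell into 3 ranges along the cluster. *Trim6* at -0.16, with signals of 92.3 and 93.5, had the only brightest-probe ratio below 0, and 0.20 in the deposited normalized values. *Trim34a*, *Trim5*, *Trim12a* and *Trim34b* lay between 0.32 and 0.52, a range also reached outside the cluster, as by *Trim54* at 0.44 and *Trim65* at 0.40. *Trim12c*, *Trim30d* and *Trim30a* lay at 1.26 and above.

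**Figure D3:**
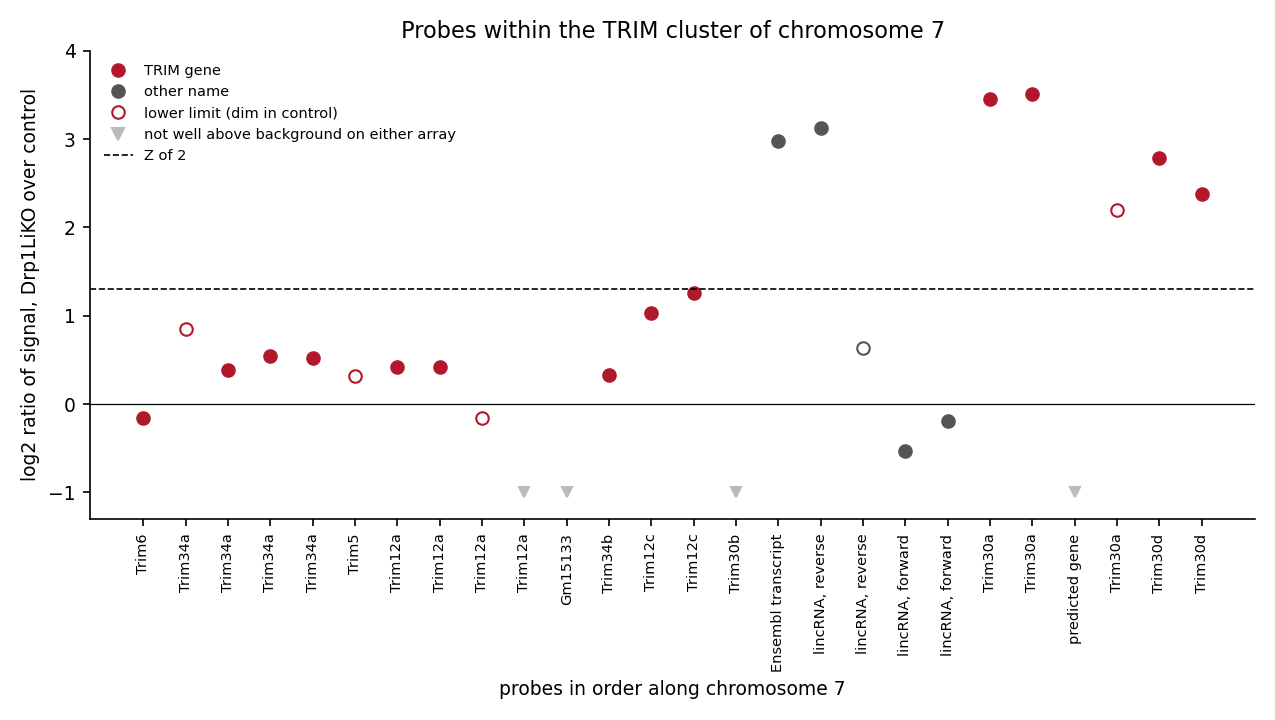
Log2 ratio of signal (*Drp1*LiKO over control) of every array probe within the cluster, in order along chromosome 7 and evenly spaced, with TRIM probes in red, probes of other names in gray, open circles for lower limits and triangles for probes dim on both arrays. The probes of *Trim30a* and *Trim30d* lie between 2.20 and 3.51, and those of *Trim34a*, *Trim5*, *Trim12a* and *Trim34b* lie below 1.

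*Trim12c* (NM_001146007, 111496596 to 111496655) fell just short of the threshold. Its signal went from 112 to 304, a 2.39-fold difference with a Z score of 1.94, and its second probe went from 42.2 to 98.0, a ratio of 1.03. In the deposited normalized values these ratios were 0.91 and -0.17. *Trim12a*, which is nearly identical upstream (95.2% of 210 aligned bases), was lower in ratio. Its signal was 1822 and 2765 at the brightest probe and 211 and 319.8 at the second, both with a log2 ratio of 0.42. Another probe was dim in control cells, with 8.87 and 18.5.

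*Trim34a* went from a signal of 341 to 557, a ratio of 0.52. Its other 3 probes had ratios of 0.55 and 0.39 and, as a bound, 0.85, so all 4 lay on the same side of 0. *Trim34b*, with 1 probe, went from 41.0 to 58.5. *Trim5* was dim in control cells at 20.3 and reached 28.7, at least 1.25-fold higher, which is within the noise of spots this dim. The probe named *Trim30b* was dim on both arrays, at 4.17 and 3.40.

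Between *Trim30b* and *Trim30a* lie probes of other names, which were looked at after the values of the cluster were seen. Of 7 such probes within the cluster 5 were compared and 2 were called higher, where 2.94% of all probes were. A probe for an Ensembl transcript that the files describe as tripartite motif-containing 30B rose from 32.4 to 289.7, a ratio of 2.98. A probe for a long noncoding RNA on the reverse strand rose from 68.5 to 681, a ratio of 3.13. Both probes for the forward strand of that region had ratios below 0, with signals of 247 and 195 at the first and 338 and 337 at the second.

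The interferon-inducible list names 16 members, of which 15 are on the array and 13 were compared. Their median log2 ratio was 0.33, against -0.03 for the other 33 TRIM genes, a median that turned to 0.04 with spike-in scaling and 0.03 in the deposited values. Of the 13 genes 11 had ratios above 0 (background 44.5%), and 2, *Trim30a* and *Trim30d*, were called higher. Outside the cluster, the 5 genes compared had ratios of -0.20 to 0.43 with a median of 0.28, and 0 were called. The listed interferon-induced genes of other families had larger ratios. All 26 were compared, 20 were called higher, against 3.50% of all genes, and the median was 2.34. *Rsad2*, the antiviral enzyme viperin, went from 88.7 to 4141. Macrophage markers had a median of 2.32, and their part in the ratios of *Trim30a*, *Trim30d* and *Trim12c* was not tested. Both lists were made with earlier results of these data known. They hold genes that the paper lists as upregulated on these arrays, such as *Mx1* and *Marco*, so their high ratios are no independent yardstick.

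**Figure D4:**
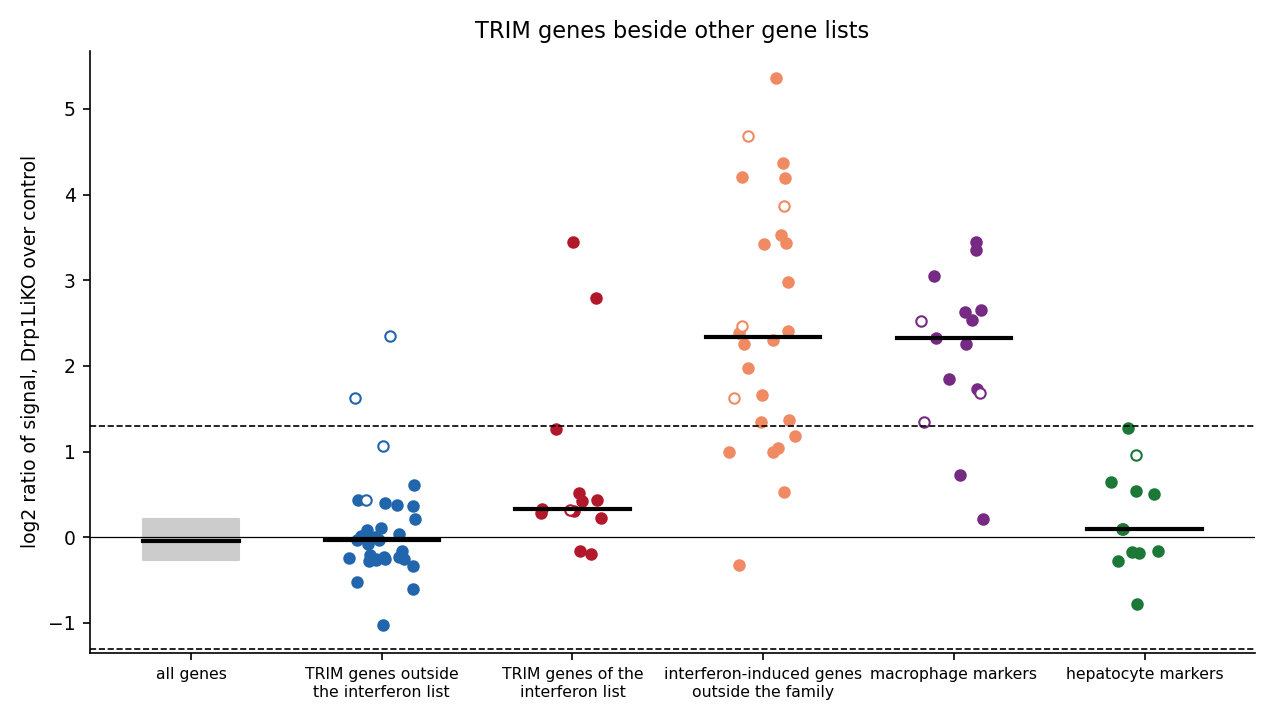
Log2 ratio of signal (*Drp1*LiKO over control) of single genes in 5 lists, with open circles for lower limits, a bar at each median and dashed lines at Z scores of 2 and -2. For all genes the gray box runs from the lower to the upper quartile (-0.27 to 0.21). The TRIM genes of the interferon list center on 0.33, the other interferon-induced genes on 2.34, the macrophage markers on 2.32 and the hepatocyte markers on 0.10.

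*Trim25*, which attaches ubiquitin chains to the RNA sensor RIG-I, had signals of 15609 and 21518 at its brightest probe, a ratio of 0.28. Its other probes went from 13245 to 22156 and from 523 to 766, ratios of 0.56 and 0.37. The brightest probe shared at least 16 bases with 75 other probes of the array, so its signal may not be that of *Trim25* alone. All 3 ratios were above 0 and within the threshold, and the brightest probe had -0.01 in the deposited values. *Trim21*, the cytosolic antibody receptor, had signals of 250 and 383, a ratio of 0.43. *Trim26* went from 2553 to 3578, a ratio of 0.30, and *Trim14*, an adaptor of the mitochondrial antiviral protein MAVS, from 276 to 365, a ratio of 0.22. *Trim56*, another antiviral ligase, lay slightly below 0, with 2247 and 2215 at its brightest probe, a ratio of -0.20. *Trim38* was dim on both arrays at 3.88 and 3.19.

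The pathway of RIG-I was read from a list of 12 sensors, adaptors, kinases and transcription factors. All were compared, with 2 called higher, 0 lower and a median of 0.35, where 3.50% of all genes were called higher and 2.81% lower. The receptor RIG-I itself, listed as *Ddx58*, went from 2141 to 4817, a ratio of 0.99. The paper lists *Ddx58* and *Ifih1* among its upregulated immune genes from these arrays. Here their Z scores were 1.53 and 1.6, short of the threshold. The 2 higher genes were *Irf7* at 1.97 and *Dhx58* at 1.66. *Mavs*, the kinase gene *Tbk1* and *Irf3* had ratios of -0.14, -0.09 and 0.11. Of 13 ubiquitin-conjugating enzymes that work with TRIM ligases 12 were compared and 0 were called, with a median of -0.01 and *Ube2l6*, the enzyme for ISG15, the highest at 0.61. Of 7 family members under other symbols 4 were compared and 0 were called, among them *Pml*, which organizes nuclear bodies, with 2045 and 2117, a ratio of -0.13.

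*Trim15* and *Trim72* were called higher from a control signal that was not well above background. *Trim15* (NM_001024134, chromosome 17, 36997790 to 36997849), known at focal adhesions, had signals of 13.4 and 105, at least 5.10-fold higher, with a Z score of 3.62 for the bound. Its only probe lies 1494 bases from that of *Trim26*. *Trim72* (NM_001079932, chromosome 7, 135154397 to 135154456), which helps reseal the membrane of muscle cells, had 4.63 and 63.4, at least 3.07-fold higher. Its second probe was dim on both arrays, at 10.5 and 6.46, and in the deposited normalized values the ratio of the first was 0.00. Of 5 skeletal muscle markers 4 were compared and 0 were called, where 3.50% of all genes were called higher and 2.81% lower. *Trim69* and *Trim10* were also detected in *Drp1*LiKO cells alone. *Trim69* had 3.93 and 43.3, at least 2.10-fold higher, and *Trim10* had 3.64 and 28.0, at least 1.35-fold higher, both within the threshold.

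No gene was called lower by its brightest probe. The lowest ratio was that of *Trim37*, a MATH domain ligase needed for normal centrosome number and peroxisomes, with signals of 49.1 and 27.2, a ratio of -1.03 and a Z score of -1.57. Its ratio was -0.40 with normexp background correction, where *Trim16* at -0.51 and *Trim59* at -0.45 lay lower. In the deposited values it was -0.22, and *Trim16* at -0.31 and *Trim59* at -0.64 were among those lower. By the main ratios the next after *Trim37* were *Trim16* at -0.60, *Trim59* at -0.52, *Trim52* at -0.34 and *Trim62* at -0.28. *Trim16*, which takes part in the clearance of damaged lysosomes, had 336 and 252 at its brightest probe and 102 and 106 at its second, a ratio of -0.12. *Trim59*, anchored in the membrane, had 527 and 418. *Trim52* had 91.1 and 81.5, and *Trim62* had 31.6 and 29.5, a difference within the noise of spots this dim.

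*Trim35* was the gene whose probes disagreed across the threshold. Its brightest probe read 4281 in the control and 4758 in the *Drp1*LiKO culture, a ratio of -0.03. Its second probe (chromosome 14, 66922843 to 66922902) fell from 147 to 36.5, a 4.58-fold difference with a Z score of -3.35. Both probes carry the same accession. Of 24 TRIM genes with more than 1 probe compared, 16 had probes of one sign and 16 had probes within 0.5 of each other, and the median spread between the probes of a gene was 0.33.

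The TIF1 group, TRIM proteins that bind chromatin through PHD fingers and a bromodomain, had no member past the threshold. *Trim28* had 20700.3 and 20005, a ratio of -0.23, and -0.05 at its second probe. *Trim24* had 5179 and 5895, a ratio of 0.00, while its second probe went from 707 to 1229, a ratio of 0.62. *Trim33*, a regulator of SMAD4, had 253 and 438 at the probe taken as brightest, 0.61, and 349 and 314 at another, -0.34, so its direction depends on the probe. In the deposited values these ratios were 0.23 and -0.09. *Trim66* was dim on both arrays. Of 10 partners of the group, none was called, and the median was 0.02. Over all genes 3.50% were called higher and 2.81% lower, so the lack of calls is no result about the group or its partners. The methyltransferase gene *Setdb1* had a ratio of 0.10, and the largest difference was that of the zinc finger gene *Zfp57*, with 51.6 and 25.8, a ratio of -1.18 and a Z score of -1.80.

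By domain, the PRY-SPRY class held 36 of the 66 genes and 28 of the 46 compared. Its median was 0.31, 20 of the 28 had ratios above 0, and the 4 genes called higher as well as *Trim12c* and *Trim69* belong to it. The class holds all 5 genes of the family whose ratios are bounds, and its median over genes measured on both arrays was 0.22. It also holds every compared gene of the interferon-inducible list but *Trim56*, and it was not summarized without that list. Of the 18 genes compared in the other classes 0 were called. Over all genes 44.5% had ratios above 0, 3.50% were called higher and 2.81% lower, so few calls among 18 genes are no result about those classes. All 4 members with NHL repeats, translational regulators such as *Trim71*, were compared, with ratios of -0.25 to 0.36. Of the 3 muscle RING finger genes, *Trim54* had 583 and 898, a ratio of 0.44, and *Trim55* and *Trim63* were dim on both arrays. The genes with a COS box and a fibronectin repeat, several of them neuronal, were mostly undetected, and 1 of 4 with an added PRY-SPRY domain was compared, *Trim46* at 0.03. Of other genes with bright probes, *Trim47* had 14686 and 17981, a ratio of 0.11, and *Trim44* had 6766 and 8892, 0.21. *Trim41* had 8732 and 12918, 0.38, while its other 2 probes had ratios of -0.12 and -0.27. The 20 genes dim on both arrays had 1 to 3 probes each and are left without a value.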

How the data were processed

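Total RNA of primary hepatocytes was amplified, labeled with Cy3 and read in 1 color. The authors deposited the spot intensity of each array from Agilent Feature Extraction (9.5.1.1 in the submitters' processing notes, 10.7.1.1 in the file headers), corrected for background and not normalized between arrays, and a table of normalized intensity values whose *Drp1*LiKO column does not keep the probe order of its array. The latter was used only as an alternative, with 1 detection limit for both columns, a choice made after that mismatch was seen. Both arrays lay on 1 slide and in 1 scan.

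Without control spots and spots the software marked as outliers, the mean log2 signal of each probe was taken and scaled by subtracting the 75th percentile of its array. Values come from 1 array per genotype, which limits their precision, and no test was made. The members, gene lists and domain classes were chosen with earlier results of these data known. Genes were named by a rule: those past the threshold, the 5 largest differences each way measured on both arrays, the 5 of highest mean signal, the interferon-inducible list, the TIF1 group and genes whose probes disagree across the threshold. Any other gene was picked with its values in view. Gene names, accessions and mm9 coordinates are those of the files, and promoters were matched to RefSeq (GRCm38.p6) by symbol.

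The alternatives were quantile normalization, normexp with an offset of 50 before it, spike-in scaling, the deposited values, all probes or those detected on both arrays only, dim signals left as they were, marked spots included, 2 other Z scores, 2-fold in place of the Z score and the median of a gene's probes. The steps were tested on simulated data. Python 3.11.15 (numpy 2.4.6, pandas 2.3.3, matplotlib 3.10.9, Biopython 1.88) and R 4.3.3 with limma 3.58.1 were used.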

Additional observations from a re-analysis of the deposited data

How the results depend on the processing

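*Trim30a* and *Trim30d* were called higher in all 12 alternatives, with log2 ratios of 2.91 to 3.52 and 2.21 to 2.85, the lowest with normexp background correction. *Trim15* was called in the 11 that compared it, with ratios of 0.98 with normexp background correction, 2.80 with no floor and 3.46 in the deposited values, not all of them bounds, against a bound of 2.35. *Trim72* was lost with normexp background correction (0.66), the deposited values (0.00) and a Z score within bins of signal (1.62), was 3.59 with no floor and was not compared among probes detected on both arrays, and *Trim12c* passed in 5 alternatives. The number of TRIM genes higher was 3 to 6 against 4. The number lower was 1, *Trim37*, with a robust Z score and with 2-fold in place of the Z score, and 0 otherwise. With no filter on dim probes the median of TRIM genes was -0.21 and that of the other TRIM genes -0.25, where the median of all genes was -0.47, since probes dim on both arrays then take the difference between the floors. The median of the interferon-inducible TRIM genes was 0.45 with the deposited normalized values and 0.32 to 0.39 otherwise, and the cause was not tested. No paired analysis was possible because there was 1 array per genotype. Signal over background limits the family, as 20 of 66 genes had no probe well above it.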
